A study of Mus musculus with 32 samples.

Results

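Expression of 6 antioxidant genes (Nfe2l2, Prdx3, Prdx4, Txn2, Mgst1 and Gstt2) and of the ethanol-oxidising cytochrome P450 gene Cyp2e1 was followed through the prefrontal cortex of mice in withdrawal from ethanol. The genes were found by the title of their cDNA clone, in its full or older mouse name, and each of the 7 had exactly 1 of the 4696 clone spots on the array. The mice came from 2 selected lines, Withdrawal Seizure-Prone (WSP) and its opposite, Withdrawal Seizure-Resistant (WSR), bred from genetically heterogeneous HS/Ibg stock for severe and mild ethanol withdrawal, each kept as 2 separately derived populations (selection replicates, written WSP-1, WSP-2, WSR-1 and WSR-2). Drug-naive adult females and males of selected generation 26 spent 72 h in ethanol vapour (EtOH) or in air, and tissue was taken 8 h after the exposure. EtOH mice were first injected with ethanol, at 1.5 g/kg in WSP-1, WSR-1 and WSR-2 and at a higher dose in WSP-2, given to keep blood ethanol alike. Mice of both treatments received 68.1 mg/kg pyrazole, an alcohol dehydrogenase inhibitor, on each day, so the air controls carried that drug as well. Each of the 32 arrays was hybridised with 33P-labelled cDNA from the pooled RNA of 2 mice, giving 8 groups (each sex, line and treatment) of 4 arrays, of which each population supplied 2. An array is named by its group, population number and pool, as in female WSP EtOH 2-1. In such dissected tissue fewer cells of a type and less RNA per cell cannot be told apart.

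Cells remove hydrogen peroxide with peroxiredoxins, which are recharged by thioredoxins, and they clear reactive electrophiles by coupling them to glutathione through glutathione S-transferases. Many genes of both systems are switched on by the transcription factor Nfe2l2 (Nrf2) when its repressor Keap1 is modified by electrophiles. Ethanol is oxidised to acetaldehyde in the brain largely by catalase and by Cyp2e1, and Cyp2e1 releases reactive oxygen while it works. With alcohol dehydrogenase blocked by pyrazole, these genes touch both the route of ethanol and the handling of its by-products.

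Most of these transcripts lay close to the detection limit. A spot was taken as above background where its intensity exceeded the 1 background intensity recorded for its array. The Mgst1 spot was above background on 31 of 32 arrays and the Cyp2e1 spot on 23. Prdx3 and Prdx4 were above on 14 each, Nfe2l2 on 11, Txn2 on 9 and Gstt2 on 8. Of all clone spots, 65.1% were above on at least 16 arrays, a mark reached by 2 of the 7 genes, and the median clone spot was above on 22. Normalised intensities (log2) have a floor of 5.64 set by the background correction, so differences of dim spots are compressed. Without that correction the members' differences were a median 1.98 times as large. Across arrays the background ran from 9.83 to 45.0 intensity units and the share of clone spots above it from 51.1% to 88.7%. The neuronal markers Thy1 and Ina were above background on 26 and 32 arrays.

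**Figure D1:**
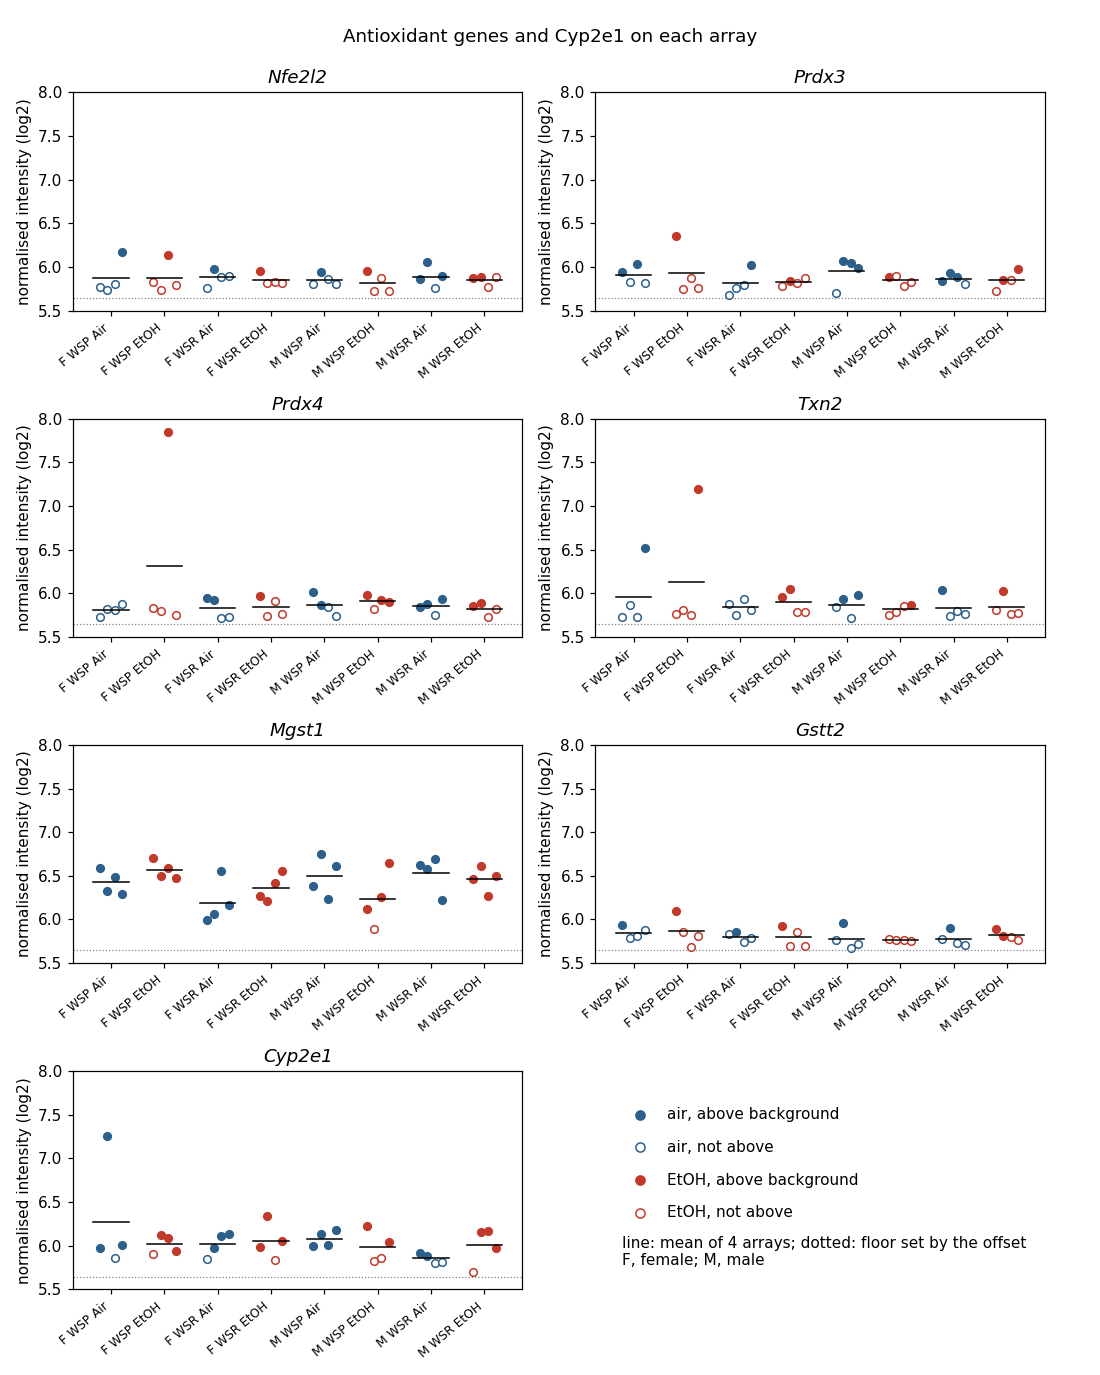
Normalised intensity (log2, y axis) of each of the 7 genes on every array, by group of sex, line and treatment (x axis). Filled points are above the array's background, open points are not, bars are means of 4 arrays and the dotted line is the floor of 5.64. Single arrays of female WSP mice stand far above the rest for Prdx4 (7.85), Txn2 (7.20) and Cyp2e1 (7.25), while Mgst1 is above background on 31 of 32 arrays.

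No gene of the 7 passed the test in any of the 11 comparisons made. Comparisons used limma's moderated test over all clone spots with Benjamini-Hochberg adjustment at 0.05, and the smallest adjusted p over the 77 tests was 0.427, for Prdx4 in female WSP. Among all clone spots 0% passed for EtOH against air on average, in any of the 4 strata of sex and line, for either interaction or between WSP-2 and WSP-1. The line comparison called 0.639% of clone spots, the sex comparison 0.894% and the comparison of WSR-2 with WSR-1 0.0852%. At an unadjusted limma p under 0.05, 1 of the 7 genes passed in each of 3 comparisons: Prdx4 for EtOH in female WSP, where 11.6% of clone spots passed, Mgst1 for the sex-by-EtOH interaction (6.13% of clone spots) and Gstt2 between WSP-2 and WSP-1 (7.41%). None of the 7 did in the other comparisons, where the share of clone spots was 7.52% for the average EtOH effect, 3% for EtOH in female WSR, 6.15% and 3.39% in males (WSP and WSR), 7.18% for line, 8.77% for sex, 2.09% for the line-by-EtOH interaction and 10.4% between WSR-2 and WSR-1. The labels describe the 4 arrays of a group as biological replicates made from separate pools. The SEs of the line comparison take arrays as independent, although each line has only 2 populations, so they do not measure the spread between populations.

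**Figure D2:**
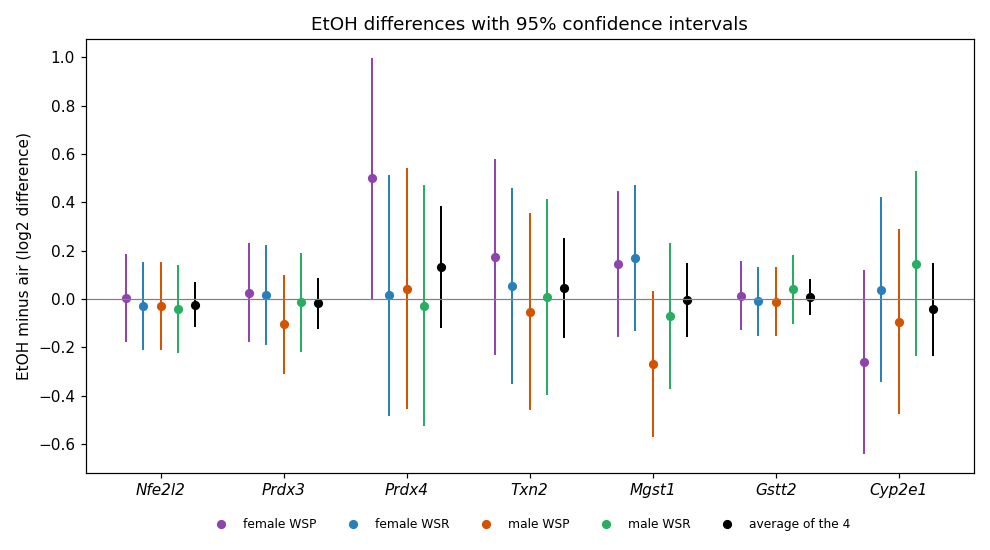
EtOH minus air difference (log2, y axis) of each gene (x axis) in the 4 strata of sex and line and averaged over them, with 95% confidence intervals from limma. Intervals of all genes include 0 except that of Prdx4 in female WSP, 0.0046 to 0.99, a difference that rests on 1 array.

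Nfe2l2 (chromosome 2, 75675513 to 75704663 in GRCm38.p6), the transcription factor of the antioxidant response, differed little between treatments. Its group means ran from 5.82 in male WSP EtOH to 5.89 in male WSR air. The EtOH difference averaged over sexes and lines was -0.024 (SE 0.043, 95% interval -0.11 to 0.065, limma adjusted p = 0.907), and the 4 strata lay between -0.040 and 0.0048. On the log2 scale of the normalised values the interval therefore reaches no further than 0.11 in either direction, but on 21 of 32 arrays the spot was not above background. Female WSP air 2-2 (6.17) and female WSP EtOH 2-1 (6.14) were the highest arrays, and both treatments thus held 1 high array in that stratum. On EtOH 2-1 Nfe2l2 stood 0.27 above its group mean, and the 43 clone spots within 3 rows and columns a median 0.31 above theirs. On air 2-2 these values were 0.30 and 0.085.

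Prdx3 (chromosome 19, 60864066 to 60874538), the mitochondrial peroxiredoxin, had group means from 5.81 in female WSR air to 5.95 in male WSP air. Air arrays were above background in 9 of 16 cases and EtOH arrays in 5 of 16. In male WSP the air arrays read 5.70, 6.06, 6.04 and 5.99 in the order 1-1, 1-2, 2-1 and 2-2, and the EtOH arrays 5.88, 5.90, 5.78 and 5.82. Air array 1-1 was the lowest of the 8 and the other 3 air arrays the highest, so the groups overlapped. The difference there was -0.10 (SE 0.099, 95% interval -0.31 to 0.097, limma adjusted p = 0.868), and the average EtOH difference was -0.019 (SE 0.049, adjusted p = 0.938). Without background correction the average was -0.060. The highest array was female WSP EtOH 1-1 (6.36, 2.26 times background), and without it the average EtOH difference was -0.054.

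Prdx4 (chromosome X, 155323918 to 155342272), the peroxiredoxin of the endoplasmic reticulum, gave the largest EtOH difference among the 7 genes, and 1 array carried it. In female WSP the air arrays read 5.72, 5.82, 5.81 and 5.87, none above background. The EtOH arrays read 5.84 (1-1), 5.80 (1-2), 7.85 (2-1) and 5.75 (2-2), and only 2-1 was above background, at 10.7 times it. The mean difference was 0.50 (SE 0.24, 95% interval 0.0046 to 0.99, limma adjusted p = 0.427), with 2 of 4 EtOH arrays above the air mean. Because no air array was above background, the air values were also raised to the lowest detected signal of their arrays. The EtOH mean was then 1.32-fold higher on normalised values, which leaves the spread between arrays out of account. This fold is not a lower bound, because only 1 of 4 EtOH arrays was above background. Without array 2-1 the difference was -0.014 (adjusted p = 0.974). Within WSP-1 it was 0.043 and within WSP-2, which holds that array, 0.96 (adjusted p = 0.199). EtOH mice of WSP-2 also had the higher ethanol dose, so population and dose cannot be told apart here.

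The spots printed around Prdx4 were high on the same array. All 45 clone spots within 3 rows and columns of it in its grid stood above their own group means on female WSP EtOH 2-1, 26 of them by more than 0.5, with a median of 0.57 against 1.54 for Prdx4. After removal of the median deviation of the surrounding spots on each array, the female WSP difference was 0.36 (limma adjusted p = 0.467). What raised that neighbourhood was not tested. In the other strata the Prdx4 differences were small: 0.015 in female WSR, 0.042 in male WSP and -0.027 in male WSR. The line-by-EtOH difference was 0.28 (SE 0.24, adjusted p = 0.999) and the sex-by-EtOH difference -0.25 (SE 0.24, adjusted p = 0.842), neither past the test. Without array 2-1 these were 0.020 and 0.0069, and the average EtOH difference of Prdx4, 0.13 (SE 0.12, adjusted p = 0.818), was 0.0040.

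Txn2 (chromosome 15, 77915051 to 77928994), the mitochondrial thioredoxin that recharges Prdx3, was above background on 9 arrays, and here too female WSP held the extremes. Its EtOH arrays read 5.76, 5.81, 5.75 and 7.20, and its air arrays 5.73, 5.86, 5.72 and 6.51. In each treatment it was pool 2-2 that stood apart, at 7.63 times background under EtOH and 3.08 times under air. The difference was 0.17 (SE 0.20, 95% interval -0.23 to 0.58, limma adjusted p = 0.803). On EtOH array 2-2 the median of the 38 surrounding spots deviated by 0.14, against 1.07 for Txn2 itself. Averaged over strata the EtOH difference was 0.045 (SE 0.098, adjusted p = 0.930), and -0.044 without that array. In female WSR 0 air and 2 EtOH arrays were above background, and the bright mean lay too close to the lowest detectable signal to give a fold.

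Mgst1 (chromosome 6, 138140527 to 138156755), the microsomal glutathione S-transferase, which also has peroxidase activity, was above background on nearly every array. Female WSP air arrays read 6.59, 6.32, 6.49 and 6.29, and the EtOH arrays 6.71, 6.50, 6.59 and 6.48. Female WSR air arrays read 5.99, 6.06, 6.55 and 6.17, and the EtOH arrays 6.27, 6.21, 6.42 and 6.55. All 8 EtOH arrays of females were above the air mean of their stratum, although the groups overlapped in both lines.

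In males most EtOH arrays lay below the air mean. Male WSP air arrays read 6.39, 6.75, 6.24 and 6.62, and the EtOH arrays 6.12, 5.89, 6.26 and 6.65. Array 1-2 of these EtOH arrays was the only one of the 32 on which Mgst1 was not above background, at 0.962 times it. Male WSR air arrays read 6.62, 6.58, 6.70 and 6.22, and the EtOH arrays 6.46, 6.61, 6.27 and 6.49. The treatments overlapped again, with 3 of 4 EtOH arrays below the air mean in each line.

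The Mgst1 differences in females were 0.15 (WSP) and 0.17 (WSR), and in males -0.27 (WSP) and -0.070 (WSR), each with SE 0.15. Averaged over these the EtOH difference was -0.0060 (SE 0.073, 95% interval -0.16 to 0.14, limma adjusted p = 0.991). Male minus female, the EtOH effect differed by -0.33 (SE 0.15, 95% interval -0.62 to -0.028), with a limma adjusted p of 0.785. The sex-by-EtOH difference was -0.49 among WSP-1 and WSR-1 arrays and -0.16 among WSP-2 and WSR-2 arrays (adjusted p = 0.530 and 0.997). The EtOH difference of male WSP was -0.56 in WSP-1 and 0.026 in WSP-2, so it came from 1 of the populations, and it was -0.16 without EtOH array 1-2. The ethanol dose was higher in WSP-2, so population and dose cannot be told apart in that contrast. Without background correction the male WSP difference was -0.55 and the sex-by-EtOH difference -0.64, and neither passed (adjusted p = 0.686 and 0.735). Arrays of females had a lower background than those of males, 16.4 ± 5.94 against 26.5 ± 8.53 intensity units (SD, n = 16 each), and its part in the sex-by-EtOH difference was not tested.

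Among the 8 groups Mgst1 was highest in female WSP EtOH (6.57 ± 0.11, SD, n = 4), followed by male WSR air (6.53 ± 0.21), male WSP air (6.50 ± 0.23), male WSR EtOH (6.46 ± 0.14), female WSP air (6.42 ± 0.14), female WSR EtOH (6.36 ± 0.15), male WSP EtOH (6.23 ± 0.32) and female WSR air (6.19 ± 0.25). Each neighbouring pair in that order differed by less than its spread.

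The upstream region of Mgst1 is shown because it holds the core of the antioxidant response element, the sequence to which Nfe2l2 binds with its small Maf partners. The window runs from 250 bases before to 50 after an annotated start (RefSeq, GRCm38.p6, chr6:138140277-138140576, plus strand), and capitals mark the core, TGACNNNGC on the opposite strand, whose leftmost base lies 56 bases upstream of the start.
Mgst1: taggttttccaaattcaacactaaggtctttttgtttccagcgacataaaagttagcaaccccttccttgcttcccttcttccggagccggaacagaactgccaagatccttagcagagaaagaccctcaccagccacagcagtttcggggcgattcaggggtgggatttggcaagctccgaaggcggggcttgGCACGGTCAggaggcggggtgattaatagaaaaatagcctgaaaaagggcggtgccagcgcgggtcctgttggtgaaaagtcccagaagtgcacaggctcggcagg
RefSeq windows of this kind were at hand for 6 of the 7 genes (7 windows, as Mgst1 has 2 starts). TGACNNNGC was sought on both strands and was found in 2 of the 7, those of Mgst1 and Nfe2l2, against 12.4% of all 32851 windows. A match is a description of these letters and not a site of binding.

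Gstt2 (chromosome 10, 75831842 to 75837419), a cytosolic glutathione transferase of the theta class, was above background on 8 arrays and never reached more than 1.42 times it. Its group means ran from 5.76 in male WSP EtOH to 5.86 in female WSP EtOH. The average EtOH difference was 0.0077 (SE 0.034, 95% interval -0.061 to 0.077, limma adjusted p = 0.968). All 8 arrays on which it was above background came from the first populations, 3 of 8 WSP-1 and 5 of 8 WSR-1 arrays, and none of the 16 arrays of WSP-2 and WSR-2 was above.

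Cyp2e1 (chromosome 7, 140763819 to 140774990), which oxidises ethanol to acetaldehyde, was not found changed by EtOH. Female WSP air arrays read 5.98, 7.25, 5.86 and 6.01, and the EtOH arrays 5.91, 6.12, 6.09 and 5.94. Air array 1-2 stood alone at 7.50 times its background, while the other 7 arrays of the stratum lay between 5.86 and 6.12. The EtOH difference was -0.26 (SE 0.18, 95% interval -0.64 to 0.12, limma adjusted p = 0.630), and 0.067 without that array. The 15 spots around Cyp2e1 had a median deviation of 0.18 on it, against 0.98 for Cyp2e1.

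Female WSR air arrays read 5.85, 5.97, 6.11 and 6.13, and the EtOH arrays 5.98, 6.34, 5.84 and 6.05. Male WSP air arrays read 5.99, 6.14, 6.01 and 6.18, and the EtOH arrays 6.22, 5.83, 5.85 and 6.04. Male WSR air arrays read 5.92, 5.88, 5.80 and 5.82, and the EtOH arrays 5.70, 6.16, 6.17 and 5.97. In each of these strata the groups overlapped, most narrowly in male WSR, where 3 of 4 EtOH arrays were above every air array and the other was below them all. The differences were 0.039, -0.094 and 0.15 (SE 0.18 each), and averaged over the 4 strata it was -0.042 (SE 0.092, 95% interval -0.23 to 0.15, limma adjusted p = 0.931). The line-by-EtOH difference was -0.27 (SE 0.18, adjusted p = 0.999), and -0.11 without female WSP air 1-2.

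By group, Cyp2e1 averaged 6.27 ± 0.66 (SD, n = 4) in female WSP air, 6.08 ± 0.092 in male WSP air, 6.05 ± 0.21 in female WSR EtOH, 6.02 ± 0.13 in female WSR air, 6.01 ± 0.11 in female WSP EtOH, 6.001 ± 0.22 in male WSR EtOH, 5.99 ± 0.19 in male WSP EtOH and 5.86 ± 0.056 in male WSR air. Groups next to each other in that order differed by less than the larger SD of the pair, though not always by less than the smaller.

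The corresponding window of Cyp2e1, the member that metabolises ethanol itself, lies at chr7:140763569-140763868 on the plus strand (GRCm38.p6), and capitals mark a TATA box, TATAAA, whose first base is 31 bases upstream of the annotated start.
Cyp2e1: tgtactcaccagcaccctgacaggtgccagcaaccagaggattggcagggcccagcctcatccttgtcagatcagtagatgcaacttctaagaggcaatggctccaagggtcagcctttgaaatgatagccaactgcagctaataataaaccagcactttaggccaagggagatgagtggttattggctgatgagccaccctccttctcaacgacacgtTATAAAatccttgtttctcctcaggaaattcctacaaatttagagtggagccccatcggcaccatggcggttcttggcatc
TATAAA, sought on both strands, was found in 2 of the 7 windows and in 13.6% of all windows, and it shares no position with TGACNNNGC in the windows of these genes. No TGACNNNGC lies in this window of Cyp2e1.

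Between the lines, 6 of the 7 genes were higher in WSP, as were 52.6% of all clone spots. The median difference of the 7 was 0.071 (log2) against 0.0042 over all clone spots, and none of the 7 passed the test (smallest limma adjusted p 0.854). The line differences of Prdx4 (0.14, SE 0.12), Cyp2e1 (0.11, SE 0.092) and Txn2 (0.087, SE 0.098) each rested on 1 female WSP array. Without the extreme array of each gene they were 0.0069, 0.025 and -0.0015. That of Prdx3 (0.071, SE 0.049) was 0.035 without its highest array, female WSP EtOH 1-1. Between the sexes, 5 of 7 were lower and 2 higher in males, where 48.4% of all clone spots were higher. The median of the 7 was -0.042 against -0.0027 over all clone spots (smallest limma adjusted p 0.780). Txn2 (-0.12, SE 0.098), Cyp2e1 (-0.11, SE 0.092) and Prdx4 (-0.085, SE 0.12) were lower in males largely through the extreme array of each. Without those arrays the differences were -0.027, -0.027 and 0.044.

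Arrays above background were counted for each gene in each population. These counts were not tested, and the share of clone spots whose counts differed as much is not given. Prdx4 was above background on 7 of 8 WSR-1 arrays and on 1 of 8 WSR-2 arrays, Nfe2l2 on 6 and 1, Txn2 on 4 and 0 and Gstt2 on 5 and 0, while Prdx3 was above on 4 and 3, Cyp2e1 on 6 and 5 and Mgst1 on 8 and 8. In WSP-1 and WSP-2 the counts were 3 and 3 for Prdx4, 2 and 2 for Nfe2l2, 4 and 3 for Prdx3, 6 and 6 for Cyp2e1 and 7 and 8 for Mgst1. Gstt2 was above on 3 and 0, and Txn2 ran the other way, on 1 and 4. The share of all clone spots above background differed too: 74.2% ± 7.89 of clone spots were above background on WSR-1 arrays and 61.2% ± 9.12 on WSR-2 arrays (SD, n = 8 each), 64.5% ± 8.30 on WSP-1 and 62.9% ± 6.65 on WSP-2 arrays. Whether that share accounts for the members' counts was not tested. After normalisation Gstt2 was lower in the second population of both lines, by -0.11 in WSP (SE 0.044, 95% interval -0.20 to -0.015, limma adjusted p = 0.635) and by -0.077 in WSR (SE 0.044, adjusted p = 0.559).

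WSP-1 values of Gstt2 ran from 5.76 to 6.09 and those of WSP-2 from 5.67 to 5.87, so the populations overlapped. With the median of the surrounding spots removed, the WSP difference was -0.019 (adjusted p = 0.900), and without background correction it was -0.32 (adjusted p = 0.603). Prdx4 was 0.23 and Txn2 0.27 higher in WSP-2 than in WSP-1 (limma adjusted p = 0.742 and 0.670), each largely through an array already described. Both are EtOH arrays of WSP-2, given the higher ethanol dose, so population and dose cannot be told apart on those arrays. Txn2 was also high on female WSP air 2-2 (6.51), whose mice were given no ethanol. Female WSP air 2-1 read 5.72, and the female air arrays of WSP-1 read 5.73 and 5.86. In 2 fits with an array left out a gene did pass: Prdx4 at 0.49 (limma adjusted p = 2.64e-05) without female WSP EtOH 2-2, and Txn2 at 0.45 (adjusted p = 0.0257) without female WSP EtOH 2-1. In each case the array left out was the partner of the extreme one, whose value then added nothing to the residual spread. Without the extreme array the difference was -0.034 for Prdx4 and 0.085 for Txn2.

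**Figure D3:**
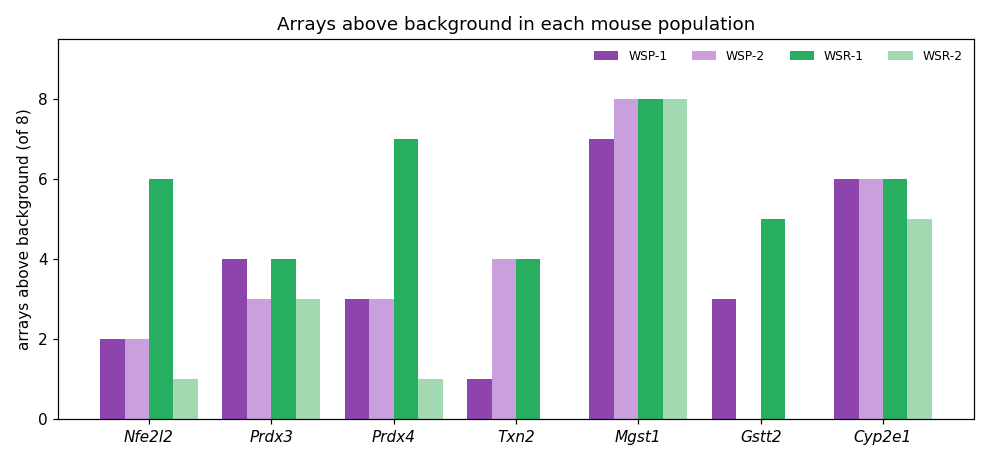
Arrays above background, of 8 (y axis), for each gene (x axis) in the 4 populations. Nfe2l2, Prdx4 and Gstt2 were most often above background in WSR-1, where 74.2% of all clone spots were, and Gstt2 was above on no array of WSP-2 or WSR-2.

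The array also carried 9 other genes of antioxidant defence and ethanol or foreign-compound metabolism: Gstz1, a zeta-class glutathione transferase that breaks down products of tyrosine, the mitochondrial uncoupling protein Ucp2, and the cytochromes Cyp2a4, Cyp2b9, Cyp2c40, Cyp2d9, Cyp2j6, Cyp3a25 and Cyp4a14. None of the 9 passed the test in any comparison, and 4 of 9 were above background on at least 16 arrays. For the average EtOH effect 6 were higher and 3 lower under EtOH, where 51.7% of all clone spots were higher. The median of the 9 was 0.049 against 0.0027 over all clone spots, and differences ran from -0.11 (Cyp4a14) to 0.16 (Gstz1). At an unadjusted p under 0.05, 2 of 9 passed, against 7.52% of clone spots: Gstz1 at 0.16 (SE 0.053, limma adjusted p = 0.656) and Cyp3a25 at 0.14 (SE 0.062, adjusted p = 0.656). Gstz1 was above background on 9 arrays and Cyp3a25, one of a family of closely similar genes that a cDNA spot may not tell apart, on 32. For EtOH in male WSR 2 of 9 passed unadjusted, against 3.39% of clone spots. There Cyp2j6, an arachidonic acid epoxygenase, was 0.36 higher (SE 0.16, adjusted p = 1) and Cyp2a4 0.12 lower under EtOH (difference -0.12, SE 0.057, adjusted p = 1), which did not pass after adjustment. Unadjusted, 1 of 9 passed for EtOH in female WSP (11.6% of clone spots), the sex-by-EtOH interaction (6.13%) and WSR-2 against WSR-1 (10.4%). None did in the other comparisons.

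Variation between arrays of 1 group went with that of the surrounding spots. The deviation of each gene from its group mean was compared over the 32 arrays with the median deviation of the 15 to 45 clone spots within 3 rows and columns of it. Spots farther away were not compared, so whether position itself mattered was not tested. Prdx4 had the highest correlation (Pearson r = 0.90, Spearman rho = 0.84), followed by Nfe2l2 (0.79 and 0.74), Prdx3 (0.73 and 0.75), Gstt2 (0.72 and 0.63), Txn2 (0.57 and 0.62) and Cyp2e1 (0.54 and 0.53). Their adjusted p-values from 100000 permutations, over 7 tests, were at most 0.0012 for r and 0.0024 for rho. Mgst1, above background on 31 arrays, had the lowest (r = 0.39, adjusted permutation p = 0.028, rho = 0.32, adjusted p = 0.073). Deviations were permuted among all 32 arrays without regard to group, so these p-values can be too small. Without the 2 arrays farthest from the median of the surrounding spots, r was 0.75 for Prdx4, 0.74 for Nfe2l2, 0.77 for Prdx3, 0.63 for Gstt2, 0.68 for Txn2, 0.47 for Cyp2e1 and 0.48 for Mgst1. Within females r ran from 0.092 (Mgst1) to 0.95 (Prdx4) and within males from 0.51 (Txn2) to 0.81 (Nfe2l2).

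**Figure D4:**
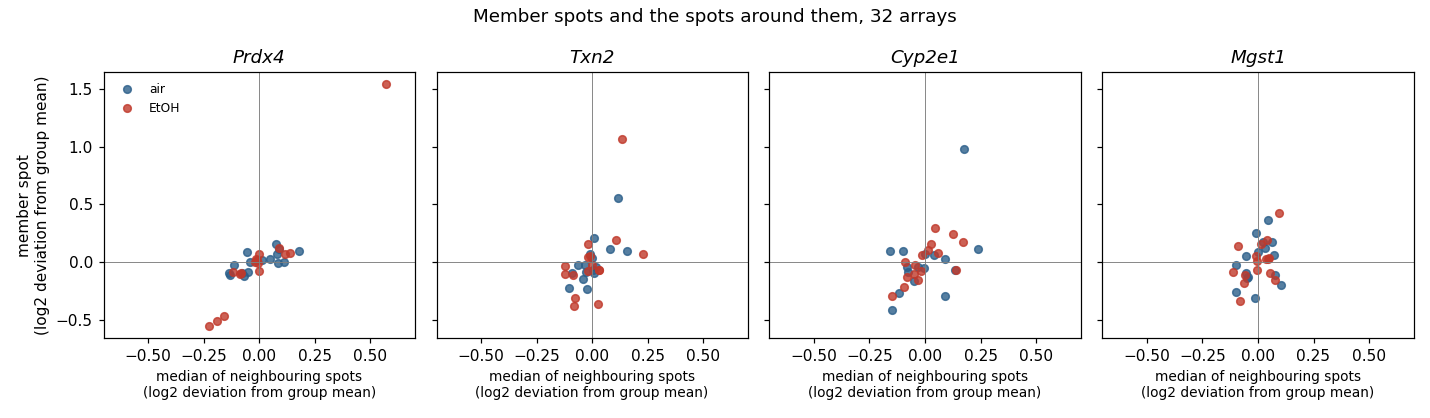
Deviation of a gene's spot from its group mean (log2, y axis) against the median deviation of the spots around it (log2, x axis) on 32 arrays, for Prdx4, Txn2, Cyp2e1 and Mgst1. The highest Prdx4 point, female WSP EtOH 2-1, has neighbours raised by 0.57, while the highest Txn2 and Cyp2e1 points have neighbours raised by 0.14 and 0.18.

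Among the 21 pairs of genes, 1 passed the permutation test by Pearson r after group means were removed, Prdx4 with Nfe2l2. Over the 32 arrays r was 0.57 (adjusted permutation p = 0.030), while Spearman rho, 0.50, did not pass (adjusted permutation p = 0.092). As the permutations ignored the groups, these p-values can be too small, and the pair is close to the threshold. The spots of Prdx4 and Nfe2l2 are printed in 1 row, 3 columns apart, so each lies in the other's neighbourhood. The correlation was 0.63 in females, 0.49 in males and 0.40 without the 2 arrays farthest from the median of Prdx4. With the median of the surrounding spots subtracted from both genes it was -0.12.

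The clone spots with 1 gene title whose normalised values were most like those of Mgst1 over the 32 arrays were deoxyribonuclease II (Pearson r = 0.83) and msg1-related protein 2 (r = 0.80), out of 1150 compared. The first is printed 2 columns and 1 row from Mgst1 in the same grid. For Cyp2e1 they were the organic cation transporter OCTN1 (r = 0.83) and clusterin (r = 0.81), in other grids, and clusterin was above background on 7 arrays. Female WSP air 1-2, where Cyp2e1 read 7.25, was included, and how far that array alone made these correlations was not tested. All the correlations are descriptions over arrays that share groups and normalisation.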

How the data were processed

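Per the file headers, each deposited array file lists every spot's intensity (Signal) beside a background intensity, which is 1 value per array. The authors' series table holds log2 values with a rank correlation of 1 with Signal, blank below background, with column medians from 7.37 to 8.63. Its centring and scaling stay unknown, and it was an alternative. RNA of 2 mice (2.5 µg each) was pooled per array, per the labels. No imager or image software is named in the sources used here.

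Intensities were corrected by normexp (offset 50) over all 5355 spots, 192 genomic DNA controls and 467 unidentified spots were removed, and 4696 clone spots were quantile normalised on the log2 scale. No 2 arrays were identical. limma 3.58.1 in R 4.3.3 was fitted over 8 group means and 32 arrays (24 residual degrees of freedom, trend, 2-sided), as the series' design collapses selection replicates. Population differences came from 16 means (16 residual degrees of freedom). p-values were adjusted over all clone spots. The number of arrays limits the precision. Fits were tested on simulated data. Python 3.11.15, numpy 2.4.6, scipy 1.17.1, jsonlite 2.0.0 and matplotlib 3.10.9 served for permutations, reading and plots.

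By rule, all 7 genes are named in every comparison, with every titled spot of a list of antioxidant and ethanol-metabolism genes and, for genes above background on at least 16 arrays, the 2 most alike spots. Examples among the 9 other genes were picked for their unadjusted p. The members and lists were chosen with earlier results of these data known. Promoters and positions are from RefSeq (GRCm38.p6), matched by symbol. The Prdx3 spot carries that gene's older name, anti-oxidant protein 1. The clone of the copper chaperone Atox1, a different gene whose title holds the same words as a synonym, was not counted.

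The labels place air and EtOH arrays in shared populations, and their pools were not treated as matched. Over the 8 air and EtOH pairs of a stratum from 1 population, mean correlations of deviations were -0.025 and 0.086 in females (WSP and WSR). In males they were -0.0030 and 0.0029. Between different populations they were 0.025 and -0.087 in females and 0.0021 and -0.0024 in males. Deviations cancel within a group, so the values within and between populations nearly mirror each other. Alternatives were median scaling, cyclic loess, no background correction, the authors' values, detected spots alone, a replicate block, each array left out, each selection replicate alone and, added after seeing the data, local centring on surrounding spots.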

Additional observations from a re-analysis of the deposited data

Results flagged for a closer look

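In 7 of the 56 sets of 4 arrays (7 genes in 8 groups), 1 array lay far from the other 3 by Dixon's test at 95%. For independent normal values chance gives this in about 1 of 20 sets. Most of these values lie near the floor and the sets share arrays, so that rate may not hold here. Whether 7 exceeds chance was not tested. Prdx4 read 7.85 on female WSP EtOH 2-1, where the nearest of the others was 5.84. Txn2 read 7.20 on female WSP EtOH 2-2 (nearest 5.81), and Cyp2e1 read 7.25 on female WSP air 1-2 (nearest 6.01). These are the largest departures, and all 3 come from female WSP mice and from 3 different arrays. Nfe2l2 read 6.17 on female WSP air 2-2 (nearest 5.80) and 5.95 on female WSR EtOH 1-1 (nearest 5.83), and Txn2 read 6.03 on male WSR EtOH 1-2 (nearest 5.80). Nfe2l2 was low on male WSR EtOH 2-1, at 5.77 with the nearest at 5.87, and was not above background there. The other 6 values were above background.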

How the results depend on the processing

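None of the 7 genes passed the test under median scaling, cyclic loess, no background correction, the authors' values (2 genes, Mgst1 and Cyp2e1, had enough values), detected spots alone (the same 2), the replicate block or local centring. With 1 array left out, 2 of 2464 member tests passed, both given with the populations above. The replicate block (population as a term, or as a random block for the line effect) changed no call of the 7 genes in 63 tests, and under the replicate block the Prdx4 difference in female WSP kept its value of 0.50 (adjusted p = 0.416). No population effect can be fitted with that block. Size depended on the correction: differences of the 7 genes were a median 1.98 times as large without it and 0.80 times after local centring. In the authors' values, those of Mgst1 and Cyp2e1 alone were a median 2.40 times as large. Signal near background limits 5 of the 7 genes, which were above it on under 16 arrays.

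Over all clone spots, the count for EtOH in female WSP was 0 in the reported fit, 17 under median scaling, 31 under cyclic loess, 22 in the authors' values (a subset of 2170 spots tested) and 1 each with no background correction and over detected spots. It was 0 to 18 with an array left out. The line count of 30 became 0 under median scaling, 16 under cyclic loess, 211 in the authors' values and 49 after local centring, and 19 to 42 with an array left out. The sex count of 42 became 5, 322 and 66 under median scaling, the authors' values and local centring. The WSR population count of 4 became 42 in the authors' values, 1 over detected spots and 2 after local centring, and 2 to 7 with an array left out. The WSP population count of 0 ran from 0 to 56 with an array left out. Under cyclic loess 0 of 21 pairs of genes correlated past the threshold, against 1. The causes were not tested.

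Small differences of single genes changed sign (log2, none of them passing). Under median scaling, the sign turned for sex at -0.023 (Prdx3) and -0.091 (Mgst1), EtOH in female WSR at -0.0067 (Prdx4) and -0.00014 (Cyp2e1), average EtOH at -0.0034 (Txn2), WSP population at -0.0045 (Mgst1), line at -0.035 (Gstt2). Under cyclic loess, the sign turned for average EtOH at 0.0011 (Prdx3) and -0.0023 (Txn2), sex at -0.022 (Prdx3) and -0.033 (Mgst1), line at 0.0069 (Nfe2l2) and -0.00030 (Gstt2). In the authors' values, the sign turned for average EtOH at 0.070 (Mgst1), sex at -0.15 (Mgst1), EtOH in male WSP at 0.10 (Cyp2e1). Under local centring, chosen after seeing the data, the sign turned for average EtOH at 0.014 (Prdx3), 0.0078 (Mgst1) and -0.010 (Gstt2), EtOH in male WSR at 0.036 (Prdx4) and 0.014 (Mgst1), line at 0.0069 (Nfe2l2), sex at 0.0083 (Nfe2l2), WSP population at -0.0056 (Mgst1), EtOH in male WSP at 0.0047 (Cyp2e1). Within selection replicate 1 alone, the sign turned for average EtOH at 0.040 (Prdx3) and -0.016 (Prdx4), sex at -0.0058 (Prdx3), 0.050 (Prdx4), 0.065 (Nfe2l2) and 0.016 (Txn2), EtOH in female WSR at -0.082 (Prdx4), EtOH in male WSP at -0.039 (Prdx4), EtOH in male WSR at 0.015 (Prdx4), line at -0.021 (Prdx4) and -0.10 (Txn2), sex-by-EtOH at 0.0075 (Prdx4). Within selection replicate 2 alone, the sign turned for line at 0.057 (Nfe2l2) and -0.00063 (Gstt2), average EtOH at 0.055 (Mgst1) and 0.0049 (Cyp2e1), EtOH in male WSP at 0.026 (Mgst1), sex at -0.012 (Mgst1), line-by-EtOH at 0.061 (Mgst1), EtOH in female WSP at 0.080 (Cyp2e1), EtOH in female WSR at -0.18 (Cyp2e1). With each array left out in turn, ranges that crossed 0 or, for Txn2 between WSP populations, the threshold were sex -0.0081 to 0.043 (Prdx3), -0.13 to 0.044 (Prdx4) and -0.028 to 0.011 (Nfe2l2), EtOH in female WSP -0.014 to 0.69 (Prdx4) and -0.40 to 0.067 (Cyp2e1), EtOH in female WSR -0.025 to 0.053 (Prdx4) and -0.058 to 0.11 (Cyp2e1), EtOH in male WSR -0.059 to 0.0038 (Prdx4). The others were sex-by-EtOH -0.34 to 0.0069 (Prdx4) and -0.027 to 0.21 (Cyp2e1), WSP population -0.034 to 0.49 (Prdx4), 0.085 to 0.45 (Txn2) and -0.0058 to 0.092 (Mgst1), average EtOH -0.046 to 0.0019 (Nfe2l2), -0.043 to 0.092 (Txn2), -0.041 to 0.024 (Mgst1), -0.012 to 0.023 (Gstt2) and -0.077 to 0.040 (Cyp2e1), line -0.0015 to 0.12 (Txn2) and -0.0054 to 0.028 (Gstt2), WSR population -0.045 to 0.068 (Cyp2e1).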
